A study of Mus musculus with 6 samples.

Results

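The aminoacyl-tRNA synthetases, the enzymes that join each amino acid to its transfer RNA, were examined in bone marrow cells of irradiated mice. Members were the protein-coding genes of the deposited table whose symbol is Farsa, Farsb or Eprs, or is a single capital letter followed by ars, with or without a closing 1 or 2. This gave 37 of the 53465 genes in the table. A symbol ending in 2 marks the mitochondrial enzyme, which split them into 20 cytosolic and 17 mitochondrial genes. All mice were wild type and had received total body irradiation of 5.0 Gy. A control group was then given saline and the other carnosine, a dipeptide that contains histidine and is made in muscle and brain. RNA was sequenced from marrow cells sorted as long-term haematopoietic stem cells (Lineage-, Sca-1+, c-Kit+, Flk2-, CD34-), in 3 libraries per group. The labels give no age, sex, carnosine dose or time, and no unirradiated mice are part of these data.

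A synthetase activates its amino acid with ATP and transfers it to the matching tRNA, which then enters the ribosome. Mitochondria translate their own few messages with a separate set of enzymes, which are encoded in the nucleus and imported, while for glycine and lysine a single gene (Gars, Kars) supplies both compartments. In the cytosol several of the enzymes sit together with scaffold proteins in the multisynthetase complex, and Eprs joins the glutamate and proline activities in a single chain.

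Total counts ran from 12602067 to 16866534 per library. Libraries of a group resembled each other (Pearson's r of log2 CPM across genes 0.988 to 0.990) more than those of the other group (0.959 to 0.962). Nothing in the labels ties the libraries of a group to separate mice, so the p-values below rest on library-to-library spread alone, and this may be technical. The sort markers were not all as low or high as the gate would have it at the level of transcripts. Kit was called higher with carnosine, at 329.6 CPM (counts scaled to library size with TMM factors) with saline and 378 with carnosine. Flt3, which encodes Flk2, was called lower, at 210.3 and 179.9 CPM. Cd34 levels were 328.5 and 301 CPM, short of the threshold (edgeR adjusted p = 0.0502). Ly6a, which encodes Sca-1, was at 30.2 and 29.2 CPM and overlapped between groups. Of the stem cell markers, Slamf1, which encodes CD150, fell from 28.6 ± 0.736 to 15.0 ± 1.40 CPM (SD, n = 3; log2 fold change -0.93 ± 0.0805, SE; edgeR adjusted p = 0.000136), and Procr levels were 5.66 and 4.97 CPM, which did not pass either. The part of these shifts in the synthetase values was not tested. In sorted bulk RNA, a change in which cells made up the sample and a change in RNA per cell cannot be told apart.

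With carnosine, 16 of the 37 synthetase genes rose and 0 fell in edgeR's quasi-likelihood test, at a Benjamini-Hochberg adjusted p of 0.05 over 15533 tested genes. All 37 had passed the filter on low counts. Over all tested genes 19.6% were called higher and 19.8% lower. The members called higher were 43.2% of the list, 10 of the 20 cytosolic genes and 6 of the 17 mitochondrial ones. The log2 fold change was above 0 for 34 of 37 members, for 17 of 20 cytosolic and for 17 of 17 mitochondrial ones. The sign turned in at least 1 alternative for Kars, Qars, Vars, Wars, Yars, Cars2, Fars2, Wars2 and Yars2, none of which passed in the comparison reported here. Its median was 0.13 over all members, 0.11 over the cytosolic and 0.15 over the mitochondrial genes, against -5.03e-05 over all tested genes. The rises were small, from 1.08-fold for Gars to 2.14-fold for Pars2, with Mars2 next at 1.44-fold. In 19 members every carnosine library lay above every saline library (10 cytosolic, 9 mitochondrial), where 26.2% of tested genes did so, and in 0 members did every carnosine library lie below, where 26.1% did. By 1 alternative, limma-trend on log2(FPKM + 1), the calls over all genes were less even, with 25.4% higher and 16.2% lower.

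**Figure D1:**
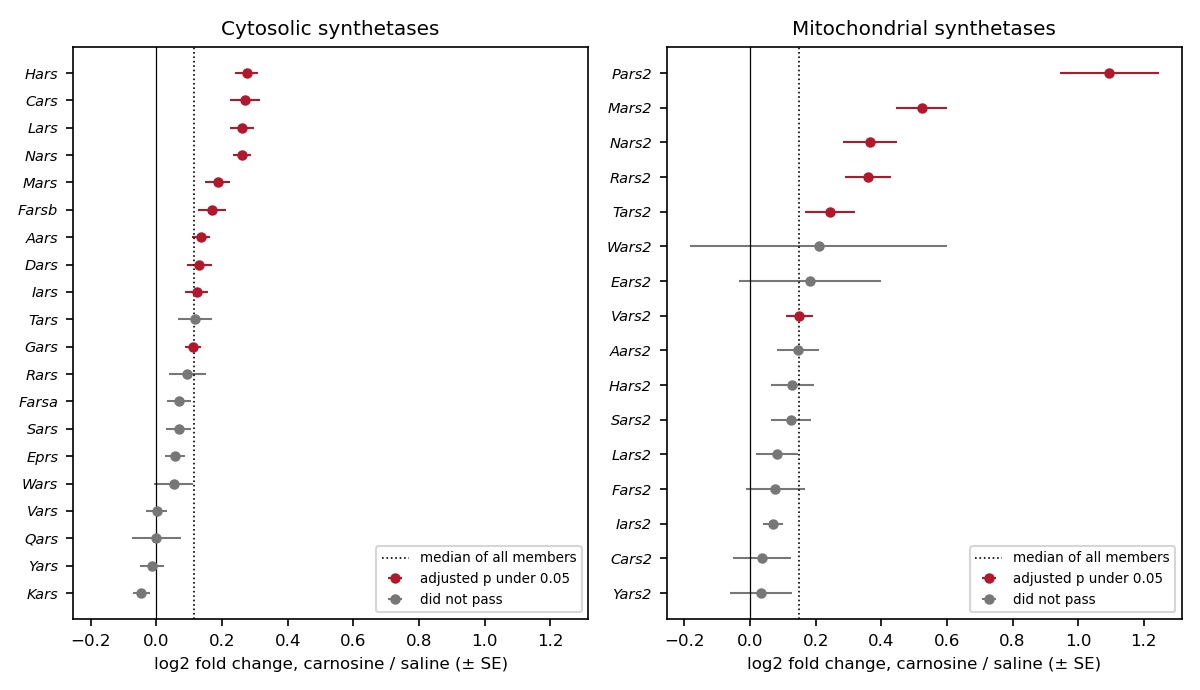
Log2 fold change of carnosine over saline for the synthetase genes, with the standard error from edgeR, cytosolic genes on the left and mitochondrial genes on the right. Red points passed an adjusted p of 0.05, grey points did not, and the dotted line is the median over all members of the compartment. The 16 mitochondrial genes drawn lie to the right of 0, with Pars2 farthest out at 1.09.

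Summed over genes, the cytosolic synthetases took 3493, 3497 and 3565 CPM in the saline libraries and 3757, 3797 and 3755 CPM in the carnosine libraries. The mitochondrial synthetases took 688, 686 and 698 CPM with saline and 769.8, 785 and 764 CPM with carnosine. Both sums were higher in each carnosine library than in any saline library. By structural class of the catalytic domain, 7 of 18 class I genes (38.9%) and 9 of 18 class II genes (50%) rose. Over all tested genes 19.6% rose. Eprs, which holds a domain of each class, did not pass. The difference between the classes was not tested.

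Promoter sequences are shown for the genes in which a binding element of ATF4, the transcription factor of the amino acid response, could be read, because several cytosolic synthetases are known ATF4 targets. RefSeq windows of 300 bases (250 before the start, 50 after, build GRCm38.p6) were matched by symbol for 27 of the 37 members, 28 windows in all. Cars, Hars, Hars2, Lars, Nars, Pars2, Rars, Vars and Wars were among those with none in the table used. The composite element TGATGNAA, N being any base, was searched on both strands. It occurred in 5 of 13 cytosolic windows (38.5%) and in 0 of 15 mitochondrial windows, against 3.97% of 32851 windows of all genes. The 5 genes were Aars, Gars, Iars, Tars and Yars. The 30 bases around a match in each follow, 5′ to 3′ on the strand of the gene, with the element or its reverse complement in capitals.
Aars (chr8:111033840-111033869, plus strand): agcgggtcactTTTCATCAgagcgctctga
Gars (chr6:55037960-55037989, plus strand): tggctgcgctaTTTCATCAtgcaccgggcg
Iars (chr13:49682126-49682155, plus strand): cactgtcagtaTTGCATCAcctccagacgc
Tars (chr15:11399655-11399684, minus strand): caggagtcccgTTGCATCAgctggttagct
Yars (chr4:129189895-129189924, plus strand): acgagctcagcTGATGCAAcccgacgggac
Of these 5 genes, Aars, Gars and Iars rose, while Tars (log2 fold change 0.12 ± 0.0503, SE) and Yars (-0.014 ± 0.0372, SE) did not pass. The printed matches of Aars, Iars and Yars lie just after the RefSeq start, and those of Gars and Tars before it. The Aars window holds another match farther upstream, which is not printed. A match is a string of letters in the window and was not tested as a binding site.

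The core of ETS factor sites, CCGGAAG, was found on either strand in 5 of 13 cytosolic and 4 of 15 mitochondrial windows, against 8.86% of all windows. The E-box CACGTG, read by MYC and related factors, was in 4 and 1 of them, against 7.15%. The CCAAT box was in 7 and 6 of them, against 37.4% of all windows. None of the 4 strings contains another. The upstream stretches of a gene that serves both compartments (Gars) and of Mars2 and Rars2, mitochondrial genes that rose, are given with ETS cores and, in Gars, the ATF4 element in capitals. Each has 150 bases and ends just past the RefSeq start.
Gars (chr6:55037856-55038005, plus strand): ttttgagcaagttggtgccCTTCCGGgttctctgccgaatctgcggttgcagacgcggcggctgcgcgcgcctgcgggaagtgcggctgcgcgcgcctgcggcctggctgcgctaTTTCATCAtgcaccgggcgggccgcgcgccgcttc
Mars2 (chr1:55237032-55237181, plus strand): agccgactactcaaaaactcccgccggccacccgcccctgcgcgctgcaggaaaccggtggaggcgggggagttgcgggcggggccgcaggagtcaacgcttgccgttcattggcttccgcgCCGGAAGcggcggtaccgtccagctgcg
Rars2 (chr4:34614812-34614961, plus strand): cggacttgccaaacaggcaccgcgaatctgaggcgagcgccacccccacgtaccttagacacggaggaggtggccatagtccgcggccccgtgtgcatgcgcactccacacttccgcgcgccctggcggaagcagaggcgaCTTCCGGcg
In these stretches the ETS core of Mars2 and that of Rars2 lie close to the start, whereas that of Gars lies farther upstream than its ATF4 element.

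Among cytosolic enzymes outside the multisynthetase complex, 6 of 12 rose (50%, against 19.6% of all tested genes). These were Nars, Hars, Cars, Aars, Gars and Farsb. Nars, which charges asparagine, was at 240.0, 249 and 254 CPM with saline and at 294.5, 295 and 299 CPM with carnosine. Its groups were well apart, and it had the smallest adjusted p of all members (log2 fold change 0.26 ± 0.0276, SE; edgeR adjusted p = 0.000369). Cars, the cysteine enzyme, was at 55.5, 56.9 and 57.5 CPM with saline and 65.8, 71.1 and 68.1 CPM with carnosine. That is a log2 fold change of 0.27 ± 0.0464 (SE), with no overlap between groups (edgeR adjusted p = 0.00344). Aars, the alanine enzyme, was at 178, 172 and 172 CPM with saline and at 193, 189 and 193 CPM with carnosine. Its rise was smaller (log2 fold change 0.13 ± 0.0270, SE; edgeR adjusted p = 0.00678) and did not pass by DESeq2's Wald test (adjusted p = 0.064).

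Of the 8 enzymes of the multisynthetase complex, 4 rose (50%, against 19.6% of all tested genes), the same share as outside the complex. Lars, Mars, Dars and Iars rose, and Eprs, Kars, Qars and Rars did not pass. Lars, the leucine enzyme and also a leucine sensor upstream of mTORC1, was at 138, 139.6 and 145 CPM with saline and at 163, 169 and 174 CPM with carnosine. All carnosine libraries were above all saline libraries (log2 fold change 0.26 ± 0.0358, SE; edgeR adjusted p = 0.00121). Mars, which charges methionine for initiation and elongation alike, rose by a log2 fold change of 0.19 ± 0.0380 (SE; edgeR adjusted p = 0.00721). Mars shares 68 bases with Ddit3 on the opposite strand, and Ddit3, the stress factor CHOP, fell (log2 fold change -0.72 ± 0.0721, SE). The sources used here do not say whether counting used strand. Dars (aspartate) and Iars (isoleucine) rose by log2 fold changes of 0.13 ± 0.0374 and 0.12 ± 0.0355 (SE), near the threshold (edgeR adjusted p = 0.0286 and 0.0301). Dars reached an adjusted p of 0.0715 without saline replicate 1, 0.0595 without saline replicate 2, 0.0832 without carnosine replicate 1 and 0.088 without carnosine replicate 2 (edgeR). Iars reached an adjusted p of 0.0707, 0.0753, 0.0841 and 0.0842 without the same libraries in that order (edgeR). The 3 scaffold genes of the complex, Aimp1, Aimp2 and Eef1e1, did not pass, with log2 fold changes of -0.033, 0.15 and -0.0012.

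The genes that serve both compartments differed from each other. Gars, the glycine enzyme, was at 226, 229 and 225 CPM with saline and at 240.2, 249 and 245 CPM with carnosine. It rose by the smallest fold of any member called (log2 fold change 0.11 ± 0.0248, SE; edgeR adjusted p = 0.0105), without overlap between groups, and did not pass by DESeq2's Wald test (adjusted p = 0.108). Kars, the lysine enzyme, was at 366, 365 and 364 CPM with saline and at 364, 352 and 345 CPM with carnosine. These values overlapped, and the log2 fold change was -0.046 ± 0.0263 (SE; edgeR adjusted p = 0.209). Without Gars and Kars, 9 of 18 cytosolic genes rose (50%, against 19.6% of all tested genes) and the cytosolic median was 0.12.

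Phenylalanine is charged in the cytosol by a tetramer of Farsa and Farsb chains and in mitochondria by the single-chain Fars2. Farsb, the beta subunit, was at 77.3, 83.5 and 82.7 CPM with saline and at 90.7, 90.8 and 92.2 CPM with carnosine. Farsa, the alpha subunit, was at 148, 139 and 141 CPM with saline and at 151, 152 and 145 CPM with carnosine. Farsb rose (log2 fold change 0.17 ± 0.0416, SE; edgeR adjusted p = 0.016), but not by DESeq2's Wald test (adjusted p = 0.0687). The groups overlapped for Farsa, whose log2 fold change was 0.069 ± 0.0355 (SE; edgeR adjusted p = 0.169). With the GC content and length offset Farsa passed too (0.144, edgeR adjusted p = 0.0179), and Farsb was at 0.137. Farsa also passed by limma-trend (adjusted p = 0.0393). The difference between the subunits was not tested. Fars2 was at 24.5, 26.4 and 24.3 CPM with saline and at 23.7, 26.2 and 29.5 CPM with carnosine, again with overlap (log2 fold change 0.077 ± 0.0902, SE).

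Eprs, the joint glutamate and proline enzyme, was at 387, 384 and 408 CPM with saline and at 401, 407 and 417 CPM with carnosine. The groups overlapped (log2 fold change 0.057 ± 0.0309, SE; edgeR adjusted p = 0.19). Eprs passed with the gene length offset (0.145, edgeR adjusted p = 0.00728) and by limma-trend (0.108, adjusted p = 0.0481). In mitochondria the activities are on separate genes, Ears2 for glutamate and Pars2 for proline. Ears2 was at 9.94, 9.61 and 16.2 CPM with saline and at 14.8, 14.1 and 11.3 CPM with carnosine, so that saline replicate 3 was the highest of all libraries. Its log2 fold change was 0.18 ± 0.216 (SE; edgeR adjusted p = 0.545), and without saline replicate 3 it was 0.46 with an adjusted p of 0.0463 (edgeR).

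Pars2 (chr4:106651069-106655282, GRCm38, plus strand) had the largest fold of the 37 members at the lowest level. It had 32, 39 and 24 counts in the saline libraries and 62, 64 and 61 in the carnosine libraries, or 1.94, 2.53 and 1.95 CPM against 4.46, 4.61 and 4.71 CPM. Every carnosine library thus held more than every saline library, and the log2 fold change was 1.09 ± 0.15 (SE; edgeR adjusted p = 0.00122). Mars2, the mitochondrial methionine enzyme, was at 22.1, 20.8 and 20.7 CPM with saline and at 32.8, 30.9 and 27.7 CPM with carnosine, a log2 fold change of 0.52 ± 0.0774 (SE; edgeR adjusted p = 0.00173). Its lowest carnosine library was still above its highest saline library.

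Of the other mitochondrial genes that rose, Rars2, which charges arginine, was at 41.2, 41.6 and 39.1 CPM with saline and at 56.4, 52.2 and 47.8 CPM with carnosine. Nars2, which charges asparagine, was at 13.8, 13.0 and 12.3 CPM with saline and at 15.7, 17.6 and 17.1 CPM with carnosine. Neither overlapped between groups, and the log2 fold changes were 0.36 ± 0.0695 and 0.37 ± 0.0815 (SE; edgeR adjusted p = 0.00589 and 0.0108). Vars2, the valine enzyme, was at 58.2, 57.8 and 59.0 CPM with saline and at 66.8, 64.0 and 63.5 CPM with carnosine. This small rise was close to the threshold (log2 fold change 0.15 ± 0.0422, SE; edgeR adjusted p = 0.0265). Vars2 did not pass without saline replicate 1, 2 or 3 (adjusted p = 0.0688, 0.0705 and 0.0575) or without carnosine replicate 1 or 2 (0.0932 and 0.0565; edgeR). Tars2, for threonine, had a log2 fold change of 0.24 ± 0.0757 (SE; edgeR adjusted p = 0.0383). Tars2 reached an adjusted p of 0.111 without saline replicate 1, 0.109 without saline replicate 2, 0.0691 without carnosine replicate 1 and 0.11 without carnosine replicate 2 (edgeR).

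**Figure D2:**
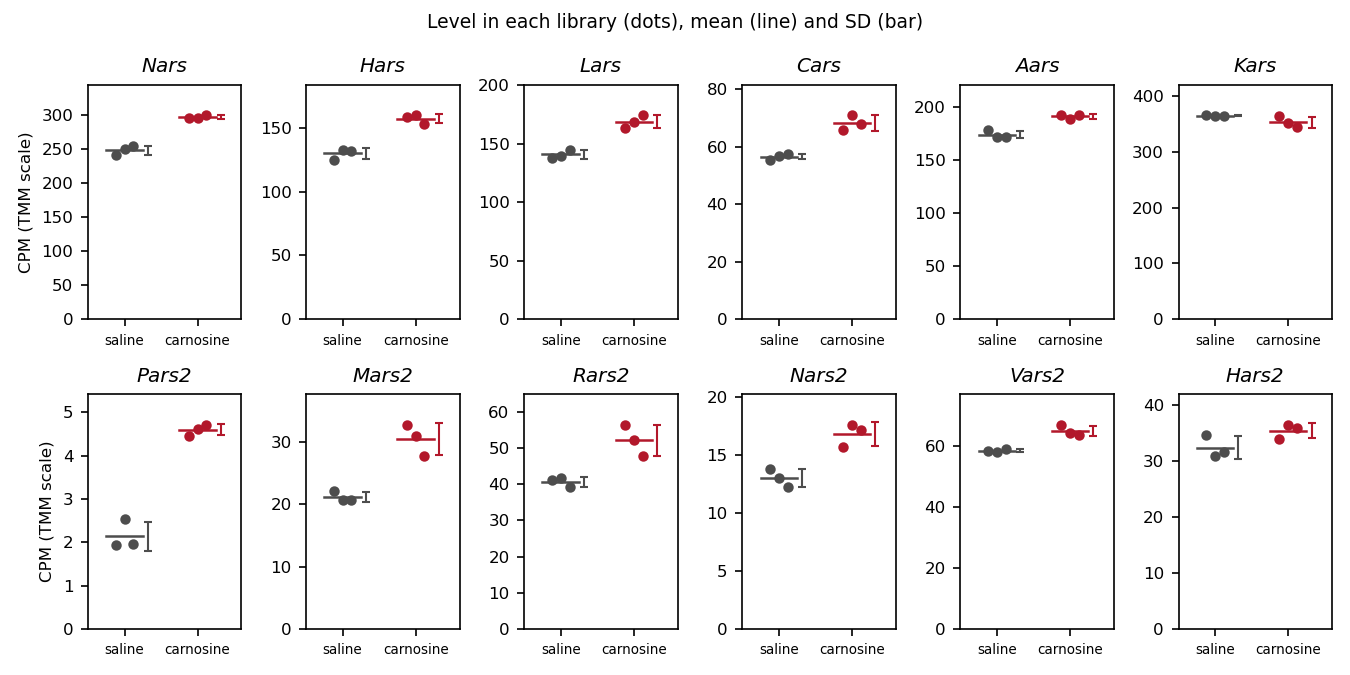
Level of 12 synthetase genes in CPM on the scaled library size in each saline library (grey dots) and carnosine library (red dots), with the mean as a line and the SD of 3 libraries as a bar; each axis starts at 0. The dots of the groups overlap for Kars and Hars2 and lie apart for the other 10 genes.

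The histidine enzymes lie head to head. Hars, for the cytosol (chr18:36766530-36783205, GRCm38, minus strand), and Hars2, for mitochondria (chr18:36783008-36792562, plus strand), share 198 bases on opposite strands. Hars was at 125, 133 and 132 CPM with saline and at 158, 160.2 and 153 CPM with carnosine. It rose by about as much as Cars, Lars and Nars, with no overlap between groups (log2 fold change 0.27 ± 0.0349, SE; edgeR adjusted p = 0.000842). Hars2 was at 34.7, 30.8 and 31.5 CPM with saline and at 33.9, 36.4 and 35.9 CPM with carnosine. Saline replicate 1 lay inside the carnosine range, and Hars2 did not pass (log2 fold change 0.13 ± 0.0652, SE; edgeR adjusted p = 0.16). The count of Hars over that of Hars2 was 3.61, 4.31 and 4.19 with saline and 4.68, 4.40 and 4.27 with carnosine. The difference of the log2 ratios, 0.14, was not beyond the spread between libraries (exact two-sided permutation test, p = 0.20, where 3 against 3 libraries allow no less than 0.10). Without saline replicate 1 that difference was 0.065. So Hars rose and Hars2 did not pass, but a difference between their responses was not detectable with these libraries. Reads from the shared bases may be split between the genes in a way the counts do not show.

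Levels of different genes were compared per length. The length behind the deposited FPKM exceeds the whole span of the gene for Qars, Pars2 and Yars2, so counts per kilobase of the longest protein-coding GENCODE M21 transcript, relative to the total count of the library, were computed as well (transcript-scaled level). Kars was the highest member on that scale in the saline group (163 ± 0.706, SD, n = 3), ahead of Gars at 93.1 ± 1.05. Dars (88.4 ± 3.66) and Nars (88.2 ± 2.43, SD, n = 3) came next and did not differ beyond their spread. By deposited FPKM Nars was first at 92.0 ± 2.53 and Kars second at 70.4 ± 0.305 (SD, n = 3). Pars2 was last on both scales, at a transcript-scaled level of 0.688 ± 0.110 and an FPKM of 0.328 ± 0.0526 (SD, n = 3), and Wars2 was second to last (1.45 ± 0.556 and 0.688 ± 0.264, SD, n = 3).

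With each mitochondrial gene set beside the cytosolic gene for the same amino acid (17 pairs, with Eprs in the pairs of glutamate and proline and Farsa in that of phenylalanine), the cytosolic gene had the higher transcript-scaled level in 16 pairs. The exception was cysteine, where Cars was at 17.2 ± 0.309 and Cars2 at 23.7 ± 1.77 (SD, n = 3, saline). By FPKM the cytosolic gene was higher in 17 of 17 pairs. The median ratio in the saline group was 6.53 by transcript-scaled level (0.726 for cysteine to 113.9 for Eprs over Pars2) and 7.40 by FPKM (1.17 for alanine to 64.7 for asparagine). After cysteine, the lowest transcript-scaled ratios were those of isoleucine, threonine and serine, 1.28, 1.43 and 1.76. In 2 pairs both genes rose, those of methionine and asparagine. In 6 pairs only the cytosolic gene passed (alanine, cysteine, histidine, isoleucine and leucine among them), in 4 only the mitochondrial gene (arginine, proline, threonine, valine), and in 5 neither did. The differences between the responses within these pairs were not tested, except for histidine above.

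**Figure D3:**
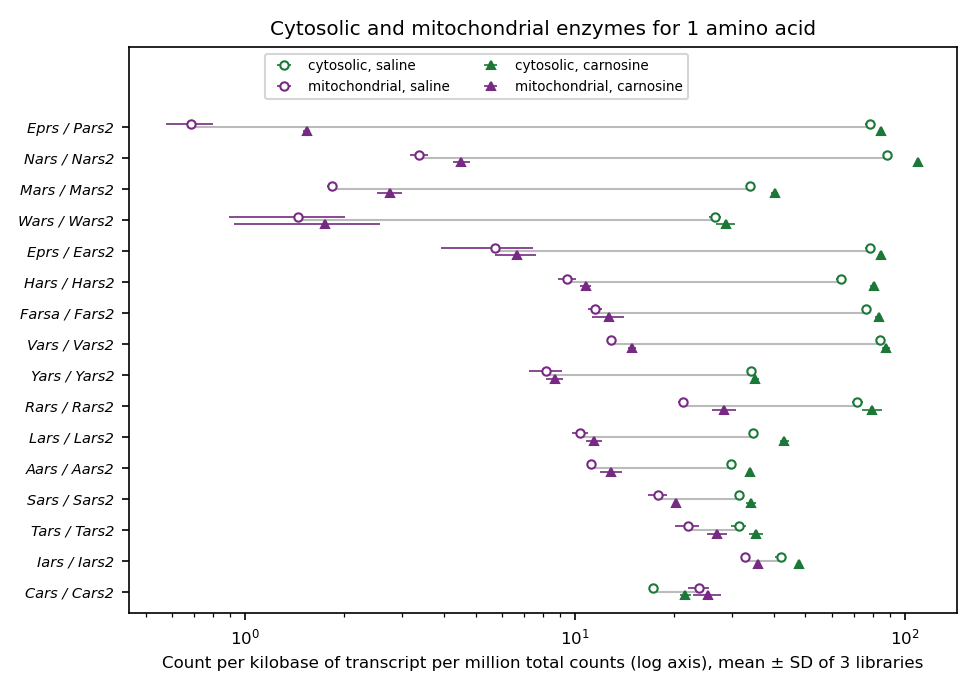
Transcript-scaled level (count per kilobase of the longest protein-coding transcript, relative to the total count of the library, log axis) of the cytosolic (green) and mitochondrial (purple) gene of 16 pairs, as mean ± SD of 3 saline (open circles) or 3 carnosine (filled triangles) libraries. Cytosolic points lie to the right of their mitochondrial partners in every row but that of Cars and Cars2, and the gap is widest for Eprs and Pars2. The scale leaves out the TMM factors (near 0.98 for saline and 1.02 for carnosine libraries), so shifts between groups are read from the log2 fold changes.

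The remaining cytosolic genes did not pass. Rars (arginine), Tars (threonine), Sars (serine) and Wars (tryptophan) had log2 fold changes of 0.094, 0.12, 0.068 and 0.052. Qars (glutamine), Vars (valine) and Yars (tyrosine) lay nearest to 0, with signs that turned between alternatives, at -4.9e-05 ± 0.0754, 0.0010 ± 0.0321 and -0.014 ± 0.0372 (SE). Of the mitochondrial genes that did not pass, Iars2, Aars2 and Sars2 had no overlap between groups (log2 fold changes 0.070, 0.15 and 0.12). Of the cytosolic genes, Rars passed without carnosine replicate 3 (adjusted p = 0.031) and Tars without saline replicate 2 (0.0493; edgeR). Wars2, the tryptophan enzyme, varied most, from 3.64 to 8.04 CPM with saline and from 5.48 to 11.7 CPM with carnosine, a log2 fold change of 0.21 ± 0.392 (SE). Lars2, Cars2 and Yars2 had log2 fold changes of 0.081, 0.036 and 0.034.

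Of 13 mitochondrial proteins that finish, receive or use charged tRNA, 7 rose (53.8%) and 1 fell (7.69%), against 19.6% and 19.8% of all tested genes. Gfm1 and Gfm2, the elongation and recycling factors, and Mtif2 and Mtif3, initiation factors, rose by log2 fold changes of 0.25 ± 0.0386, 0.31 ± 0.0526, 0.26 ± 0.0528 and 0.38 ± 0.0898 (SE). Mtif3 did not pass by the DESeq2 Wald test (adjusted p = 0.0699). With 1 library left out, 5 to 6 genes of this list rose, against 15.7% to 16.3% of all tested genes. Qrsl1, a subunit of the amidotransferase that makes glutaminyl-tRNA in mitochondria in place of a synthetase, was chosen after its values were seen, with its partners Gatb and Gatc. Qrsl1 rose (log2 fold change 0.34 ± 0.0943, SE; edgeR adjusted p = 0.0255), but did not pass by the DESeq2 Wald test or without any 1 of saline replicates 1, 2 and 3 and carnosine replicates 1 and 3 (highest adjusted p of Qrsl1 over the alternatives 0.0728). Gatb and Gatc did not pass (-0.013 and 0.14). Tufm, the factor that brings charged tRNA to the mitochondrial ribosome, fell (log2 fold change -0.25 ± 0.0763, SE; edgeR adjusted p = 0.036). Tufm reached an adjusted p of 0.0962 without saline replicate 1, 0.0991 without saline replicate 3, 0.0974 without carnosine replicate 2 and 0.101 without carnosine replicate 3 (edgeR).

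Of 8 cytosolic elongation and termination factors, 0 rose and 5 fell (62.5%, against 19.8% of all tested genes): Eef1a1, Eef1b2, Eef1g, Eef2 and Etf1. Eef1a1, which carries charged tRNA to the ribosome, was at 9846, 9610 and 9985 CPM with saline and at 7932, 7722 and 7771 CPM with carnosine. The groups were far apart relative to their spread (log2 fold change -0.33 ± 0.0215, SE; edgeR adjusted p = 3.6e-05). Eef2, the translocase, and Etf1, the release factor, fell by 0.24 and 0.31 on the log2 scale, and Eef1g by 0.19. Eef1b2, with a log2 fold change of -0.11, did not pass without saline replicate 1, 2 or 3 (adjusted p = 0.0609, 0.129 and 0.0771) or without carnosine replicate 1 or 3 (0.107 and 0.124; edgeR). The cytosolic synthetases, whose product Eef1a1 carries, thus had 0 of 20 genes falling in the same test.

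Genes that make and mature tRNA were called higher in part. Over 22 tRNA maturation and export genes the median log2 fold change was 0.084. Of these, 0 fell (against 19.8% of all tested genes) and 7 rose (31.8%, against 19.6%). They included Adat1, a tRNA adenosine deaminase (0.78 ± 0.139, SE), the pseudouridine synthases Pus1 and Pus3 (0.20 and 0.40), and Trnt1, which adds the CCA end that synthetases charge (0.21 ± 0.0506, SE). Without saline replicate 1, 4 genes of this list rose, against 15.7% of all tested genes. With the replicate number as a block 4 rose, against 16.4%. Of 21 genes of RNA polymerase III, which transcribes tRNA genes, 8 rose (38.1%) and 2 fell (9.52%). Among those that rose were Polr3a, the largest subunit (0.28 ± 0.0563, SE), Polr3e (0.28), Polr3g (0.29) and Gtf3c3 (0.33). The number that rose was 5 without saline replicate 1, 2 or 3 or carnosine replicate 2 or 3. In those fits 15.7% to 16.3% of all tested genes were called higher. Polr3g reached an adjusted p of 0.0515 without carnosine replicate 2 (edgeR). The 2 that fell were Maf1, a repressor of this polymerase (-0.19 ± 0.0427, SE), and Polr3k (-0.23 ± 0.0663, SE). The DESeq2 Wald test called 0 genes of this list lower, and Maf1 did not pass with the GC content and length offset either (highest adjusted p of Maf1 over the alternatives 0.0834). Polr3k reached an adjusted p of 0.0593 without saline replicate 1 and of 0.0824, 0.0556 and 0.064 without carnosine replicates 1, 2 and 3 (edgeR).

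Of 5 relatives and editing factors of the synthetases 3 rose (60%, against 19.6% of all tested genes). These were Tarsl2, a second cytosolic threonine enzyme (0.23 ± 0.0531, SE), Dtd2 (0.50 ± 0.0933, SE), which removes wrongly attached amino acids, and Prorsd1 (0.34 ± 0.0792, SE). In the selenocysteine route the amino acid is built on a tRNA charged with serine. Of 6 genes of this route 1 rose (16.7%, against 19.6% of all tested genes), Sephs2. It was at 72.6, 64.5 and 70.8 CPM with saline and at 98.3, 101.2 and 105.1 CPM with carnosine, a log2 fold change of 0.55 ± 0.0547 (SE; edgeR adjusted p = 0.000265). Its groups did not overlap, and 2 genes of the list rose without saline replicate 2 or without carnosine replicate 1.

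The ATF4 axis, the amino acid stress response that controls several cytosolic synthetases, had 5 of 25 genes called higher (20%, against 19.6% of all tested genes) and 8 lower (32%, against 19.8%). Atf4 itself was at 460.2, 453 and 448 CPM with saline and at 318, 327 and 338 CPM with carnosine, without overlap (log2 fold change -0.47 ± 0.0284, SE; edgeR adjusted p = 2.4e-05). Ddit4, Cebpb and Slc3a2 also fell (-0.96, -1.12 and -0.37). Asns, asparagine synthetase and a target of ATF4, rose from 48.5, 54.4 and 61.0 CPM to 86.8, 89.0 and 88.3 CPM (log2 fold change 0.69 ± 0.0798, SE). The others called higher were Eif2ak2, the RNA-activated eIF2 kinase (0.27 ± 0.0376, SE), Psat1 (0.091), Slc7a11 (0.38) and Chac1 (0.85). The last 3 each had an adjusted p above 0.05 in 4 or more of the 6 fits without a library, between 0.0504 and 0.124 (edgeR). The list had 2 genes called higher without saline replicate 1 or 3, and 3 without carnosine replicate 1, 2 or 3. Among the synthetases with an ATF4 element in the window, Aars, Gars and Iars rose, and Tars and Yars did not pass. Whether ATF4 acted on any of them was not tested.

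Of 8 genes that handle histidine or carnosine, 6 were tested. Of the tested genes 1 rose (16.7%) and 3 fell (50%), against 19.6% and 19.8% of all tested genes. Hdc, which makes histamine from the amino acid that Hars charges, was at 62.1, 62.7 and 65.0 CPM with saline and 85.1, 78.6 and 88.7 CPM with carnosine, and rose (log2 fold change 0.41 ± 0.0540, SE; edgeR adjusted p = 0.000993). Transporters of dipeptides and histidine fell: Slc15a2 (-0.45 ± 0.0744, SE), Slc15a4 (-0.45 ± 0.0849, SE) and Slc15a3 (-0.73 ± 0.220, SE). Slc15a3 did not pass in any fit without a library (edgeR adjusted p 0.0514 to 0.108). Cndp2, a cytosolic dipeptidase that cleaves carnosine, lay at 63.6 ± 0.636 CPM in the saline group and 62.6 ± 2.48 CPM in the carnosine group (SD, n = 3) and did not pass.

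By median log2 fold change over tested genes, the lists ran from -0.29 for histidine and carnosine handling and -0.15 for the cytosolic elongation factors, over -0.019 for the ATF4 axis, 0.052 for RNA polymerase III and 0.089 for selenocysteine charging, to 0.23 for the synthetase relatives and 0.25 for the mitochondrial charging partners.

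**Figure D4:**
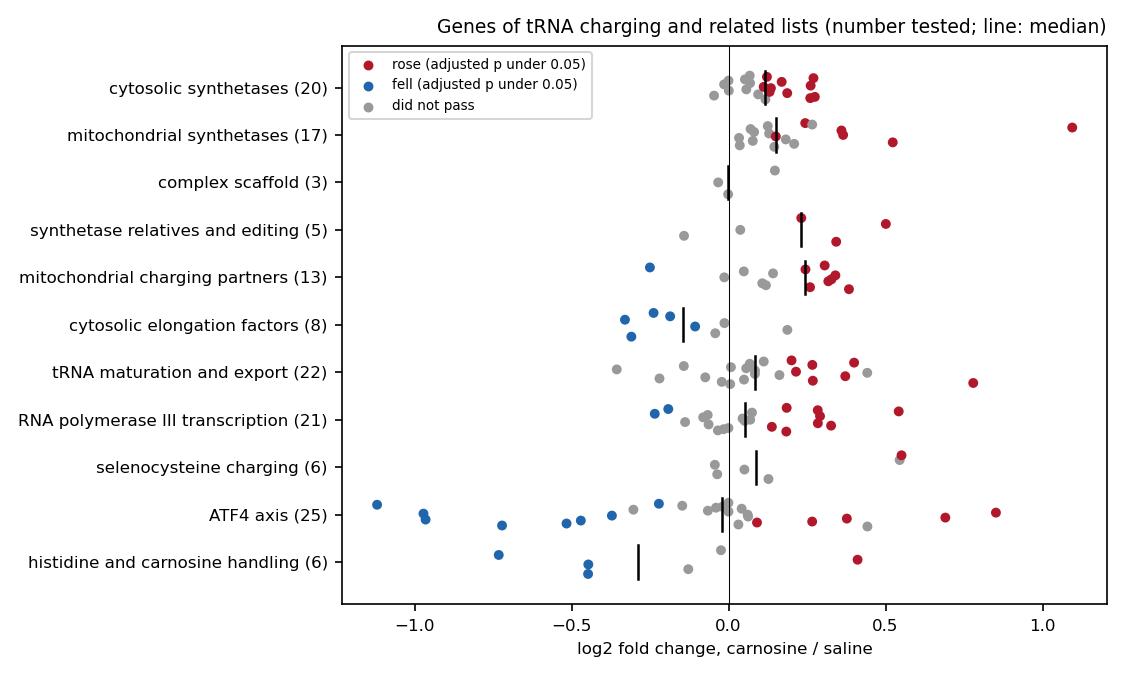
Log2 fold change of carnosine over saline for the synthetases and for 9 lists of genes around tRNA charging, 1 point per tested gene, with the number tested beside the name and the median as a black line. Red points rose and blue points fell at an adjusted p of 0.05 (edgeR), and grey points did not pass. No synthetase is blue, while 5 of 8 cytosolic elongation factors are.

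Marker transcripts of other cell types also moved between the groups, where 19.6% of all tested genes rose and 19.8% fell. The 5 granulocyte and monocyte progenitor markers all rose, from a summed 3735 to 3761 CPM with saline to 7720 to 7972 CPM with carnosine. The 4 megakaryocyte markers all fell, from 336 to 359 CPM to 137 to 143 CPM. Of 6 plasma cell markers 4 rose (summed 474 to 483 against 496 to 796 CPM), and of 5 erythroid markers 4 rose and 1 fell (145 to 152 against 173 to 179.6 CPM). Jchain, the main plasma cell transcript here, was at 584 and 576 CPM in carnosine replicates 1 and 2 and at 281 CPM in carnosine replicate 3, below the 314 CPM of the lowest saline library. Of 5 B cell markers 0 rose and 1 fell (25.1 to 30.9 against 24.4 to 27.4 CPM). That 20% is close to the share that fell among all tested genes. Of 3 endothelial markers 3 fell (108 to 119.5 against 88.5 to 94.1 CPM). Most of that sum was Pecam1 (98.6 and 88.2 CPM), while Cdh5 fell from 7.16 ± 2.23 to 1.06 ± 0.300 CPM and Kdr from 7.79 ± 0.858 to 1.47 ± 0.421 CPM (SD, n = 3; log2 fold changes -2.76 and -2.40). The 4 T cell markers summed to 0.894 to 1.56 CPM with saline and 3.95 to 5.02 CPM with carnosine, the 2 tested both rising. The 4 macrophage markers summed to 22.8 to 27.2 and 29.8 to 31.0 CPM, with 1 of 2 tested rising. The untested markers (Cd3d, Cd3g, C1qa, C1qb) had 0 to 15 counts per library. The part of these shifts in the synthetase values was not tested. Without carnosine replicate 3, the library with the low Jchain, 11 cytosolic and 6 mitochondrial synthetases rose, against 16.1% of all tested genes.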

How the data were processed

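RNA of the 6 libraries was poly-A selected and sequenced from stranded paired-end libraries, per the labels' protocols. CASAVA 1.8, HISAT2, StringTie, edgeR and GRCm38 are named without roles in the submitters' processing notes. The deposited table gives, per the file headers, raw read counts and FPKM for each gene and library. The deposited FPKM equals the count over the library's total and a gene length whose definition is not stated in the sources used.

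Groups and replicate numbers came from the sample titles. Counts were fitted with edgeR 4.0.16 (R 4.3.3): filterByExpr kept 15533 genes with 99.8% of the counts, library sizes got TMM factors, and the quasi-likelihood test compared the carnosine with the saline group without covariates. P-values were adjusted by Benjamini-Hochberg over all tested genes at 0.05. The standard error is the log2 fold change divided by the square root of F. Levels are CPM on the TMM scale. Any 2 libraries of a group differed by 1.64 to 1.88 times sampling noise, so none was counted as a duplicate. The biological coefficient of variation was 0.0999. The procedure was tested on simulated data.

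The members and gene lists were chosen with earlier results of these data known. Values in every library are given for the 5 cytosolic and 5 mitochondrial genes of smallest p among those called, Hars, Hars2, Gars, Kars, Farsa, Farsb, Fars2, Eprs, Ears2 and the highest and lowest per length. Of each list up to 4 genes by p-value are named, and any direction with 5 or fewer calls. Lists are described by counts and medians without a set test.

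Of the deposited genes, 95.9% lie where GENCODE M21 (GRCm38) places them, and transcript lengths came from it. Promoters are from RefSeq (GRCm38.p6). For comparison, upper quartile scaling and the size factors of DESeq2 1.42.0 replaced TMM, and the filter was dropped or set to 5 CPM in 3 libraries. The DESeq2 Wald test and, from limma 3.58.1, voom and trend replaced the test, the last on log2(FPKM + 1) with genes under 1 FPKM in more than 3 libraries left out. A block on replicate number, a gene length offset and the omission of each library completed the alternatives. A GC content and length offset (splines of 5 degrees of freedom) and the alternatives for the lists were added after seeing the data. Some results on single members are not reported here.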

Additional observations from a re-analysis of the deposited data

How the results depend on the processing

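The number of synthetases called lower stayed at 0 in both compartments in all 16 alternatives. The number called higher was 4 to 8 of the mitochondrial genes and 5 to 13 of the cytosolic ones, the 5 coming from the DESeq2 Wald test and the 13 from limma-trend on log2(FPKM + 1). Over all genes the share called higher was 13.8% by the DESeq2 Wald test, 25.4% by limma-trend and 9.36% without the filter. Leaving out 1 library gave 8 to 11 cytosolic and 4 to 6 mitochondrial calls, with 15.7% to 16.3% of all genes called higher. The cytosolic median log2 fold change was 0.17 by limma-trend, 0.093 with the GC content and length offset and 0.093 to 0.13 with 1 library left out. The mitochondrial median was 0.20 with that offset. By limma-trend the median over all genes in the fit moved as well, to 0.051, and with that offset it was -0.00073. The FPKM used by limma-trend carry no TMM factors. The cause of these shifts was not tested.

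With the replicate number as a block (replicate block), 8 cytosolic and 4 mitochondrial genes were called higher, against 16.4% of all tested genes. Saline and carnosine libraries of the same number did not deviate together (correlations 0.0079, 0.027 and 0.021 for numbers 1, 2 and 3), so the numbers were not taken to pair the samples. Dars, Iars, Tars2 and Vars2 did not pass with the block.

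Of the 16 genes called higher, 9 passed in all their alternatives (Cars, Hars, Lars, Mars, Mars2, Nars, Nars2, Pars2, Rars2), and Aars, Farsb and Gars in all but the DESeq2 Wald test. Pars2 falls below the filters of 5 CPM and 1 FPKM and has 14 alternatives. Of the 21 others, 10 passed in some alternative. Among these, Eprs passed with the gene length offset (0.145, edgeR adjusted p = 0.00728). Vars passed with the GC content and length offset (0.11, edgeR adjusted p = 0.0138).

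Signs turned only among genes that had not passed. Qars was 0.0034 with upper quartile scaling, 2.7e-05 by DESeq2, 0.0050 by limma-voom, 0.051 by limma-trend, 0.00033 with the replicate block and 0.047 with the length offset. Vars was -0.0062 without the filter, -0.0067 at 5 CPM, -0.00020 by limma-voom and -0.014 with the length offset. Kars was 0.011 and Yars 0.040 by limma-trend, and Yars2 was -0.029 with the GC content and length offset. With 1 library left out, Cars2 ranged from -0.019 to 0.12, Fars2 from -0.0060 to 0.15, Qars from -0.062 to 0.065, Vars from -0.017 to 0.027, Wars from -0.0027 to 0.084, Wars2 from -0.24 to 0.40, Yars from -0.038 to 0.0062 and Yars2 from -0.035 to 0.13.

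Of 51 genes called in the other lists, 28 passed in all their alternatives. The DESeq2 Wald test called 4 mitochondrial partners and 4 genes of RNA polymerase III higher and 0 of the latter lower, limma-trend 3 cytosolic elongation factors lower, and the replicate block 4 tRNA maturation genes and 2 genes of the ATF4 axis higher. With 3 libraries a group, low genes such as Wars2 and Ears2 have wide errors, and counts do not show strand or shared reads.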
